A study of Mus musculus with 6 samples.

Results

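The unfolded protein response and the integrated stress response were followed through 31 genes, taken by name from a list of ER chaperones, sensors and ATF4 targets. The rule uses no measured value, but the list was drawn up with earlier results of these data known. They are 14 chaperones and folding enzymes of the endoplasmic reticulum (ER), 6 stress sensors and transcription factors, 7 genes of ER-associated degradation (ERAD) and translocation, and 4 genes that act downstream of ATF4 and CHOP. All 31 symbols were found once each among 51361 genes in the count table, and all 31 passed the filter on low counts, as did 16657 genes in all. Messenger RNA was measured by bulk RNA sequencing in CD4+CD25+Foxp3+ regulatory T cells (Tregs) sorted from mice. There were 3 groups of 2 libraries each: Tregs from brain after transient middle cerebral artery occlusion (tMCAO brain), Tregs from blood after the same operation (tMCAO blood), and Tregs from blood after a sham operation (sham blood). In this stroke model an artery of the brain is blocked and then reopened. Blood flow was stopped for 60 min, and the Tregs of the tMCAO groups were sorted 14 days after that. No interval after the operation was recorded here for sham blood. All groups, sham included, were male C57BL/6N mice, 9 weeks old, that carried the allele Tg(Foxp3-DTR/EGFP)23.2Spar, in which Foxp3 regulatory sequence drives a diphtheria toxin receptor fused to EGFP. No sham brain library was analysed here, so in the comparisons with sham blood the site and the operation cannot be told apart for brain.

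Proteins that enter the ER are folded there by chaperones and by enzymes that form disulphide bonds. When unfolded protein accumulates, the ER membrane sensors IRE1 (Ern1), PERK (Eif2ak3) and ATF6 (Atf6) leave the chaperone BiP (Hspa5) and start the unfolded protein response. IRE1 splices the messenger of Xbp1 and ATF6 is cut to release a transcription factor, and both products raise transcription of chaperones and ERAD genes. PERK, like other kinases that sense amino acid shortage, viral RNA or lack of haem, phosphorylates the initiation factor eIF2. This slows translation in general while ATF4 is translated more, and it is called the integrated stress response. ATF4 and its target CHOP (Ddit3) raise Asns, Trib3, Chac1 and Ppp1r15a, and the product of Ppp1r15a (GADD34) directs a phosphatase to eIF2 and so ends the response. In T cells the pathway is known to take part in activation and in the secretion of cytokines. Gene counts do not show the splicing of Xbp1, the cleavage of ATF6, the translation of ATF4 or the phosphorylation of eIF2.

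Promoter elements of this response were searched in the members, and the matches are shown here for reference beside the values below. The members were picked as known genes of this response, so the matches say nothing about its activity in these libraries. The ER stress response element (ERSE) is CCAAT and CCACG with 9 bases of any kind between them, and is bound by NF-Y with ATF6 or XBP1. ERSE-II is ATTGG and CCACG with 1 base between them. Both were searched on both strands from 250 bases before to 50 bases after the start of each gene in RefSeq promoters of GRCm38.p6. Of the 31 genes, 27 matched an entry, and Hyou1, Manf, Atf6 and Derl1 did not. ERSE occurred in 9 of 27 member promoters and in 0.119% of 32851 promoters of the same length. ERSE-II occurred in 2 of 27, and in 0.0365% of all. In the matches that follow, capitals mark the fixed letters of the motif, and each is written 5′ to 3′ on the strand that carries it.
Hspa5 (chr2:34772025-34772043, + strand, far end 65 bases before the RefSeq start): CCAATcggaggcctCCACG
Calr (chr8:84847075-84847093, + strand, 162 bases before): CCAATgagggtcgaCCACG
Canx (chr11:50325800-50325818, - strand, 145 bases before): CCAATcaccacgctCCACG
Pdia6 (chr12:17266491-17266509, + strand, 98 bases before): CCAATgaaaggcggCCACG
Dnajc3 (chr14:118937827-118937845, + strand, 105 bases before): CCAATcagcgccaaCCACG
Creld2 (chr15:88819520-88819538, - strand, 126 bases before): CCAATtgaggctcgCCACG
Derl3 (chr10:75893242-75893260, - strand, 156 bases before): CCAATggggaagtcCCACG
Syvn1 (chr19:6046532-6046550, + strand, 44 bases before): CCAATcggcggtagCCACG
Herpud1, ERSE-II (chr8:94386377-94386387, + strand, 52 bases before): ATTGGgCCACG
Dnajb11, ERSE-II (chr16:22857852-22857862, + strand, 7 bases after): ATTGGcCCACG
Hsp90b1 held a pair of ERSE matches, at chr10:86705638-86705656 on the - strand and chr10:86705533-86705551 on the + strand:
Hsp90b1, first: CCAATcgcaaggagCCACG
Hsp90b1, second: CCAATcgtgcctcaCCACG
The core of the unfolded protein response element (TGACGTGG), to which XBP1 and ATF6 bind, was found in 0 of 27 member windows and in 0.676% of all windows. The ATF4 element, searched only in the form TGATGNAAT, was also in 0 of 27, against 0.965% of all. Other forms and sites outside these windows were not searched. The 0 matches thus do not show that a member lacks an ATF4 site. A match describes these letters only.

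Library totals ran from 14348179 to 24460894 counts. The libraries differed in how far their transcripts carried T cell markers and markers of other cells. Summed over 17 T cell identity genes, the share was 0.911% and 0.883% of counts in sham blood, 0.457% in tMCAO blood library 2, 0.155% in brain library 2, 0.0684% in tMCAO blood library 1 and 0.0303% in brain library 1. Foxp3, the defining Treg transcription factor, was at 50.1 and 60.7 CPM (counts scaled to a common library size) in sham blood and at 19.6 and 5.18 CPM in library 2 of brain and of tMCAO blood. In library 1 of those groups it was at 0.73 and 0.54 CPM, so these libraries went against their label as Tregs. For 12 microglia markers the summed share was 0.783% and 0.859% in brain and 0.0122% to 0.0270% in the 4 blood libraries, where Sall1 was at 0. For 13 markers of monocytes and macrophages it was 3.42% and 1.46% in brain, 3.54% and 1.37% for tMCAO blood, and 0.739% and 0.587% for sham blood. Lyz2 held the most counts of the 13 in every library, and the similar sums of brain and tMCAO blood hide opposite differences. Both brain libraries exceeded both tMCAO blood libraries for 4 of the 13, Cd14 and Ms4a7 among them. They lay below both for 5, including Arg1, Chil3 and Fn1. For 8 red cell genes the summed share was 15.3% and 16.7% of counts in sham blood, 0.107% and 3.82% for tMCAO blood, and under 0.001% in brain. Neutrophil markers (10 genes) were at 0.779% in tMCAO blood library 2 and 0.0294% in library 1, at 0.168% and 0.0237% in brain, and under 0.01% in sham blood. Dendritic cell markers (8 genes) were at 0.0684% and 0.141% in brain, 0.00281% and 0.00925% for tMCAO blood, and 0.0537% and 0.0707% for sham blood. Most of the sham blood share came from Ccr7, at 492 and 675 CPM there and at 589 and 746 CPM in brain. For the other 7 genes both brain libraries lay above both sham blood libraries. Plasma cell markers (10 genes) were at 0.928% in brain library 2 and at most 0.0122% in the other 5 libraries. The part these differences play in the results below was not tested, and in such bulk samples fewer cells of a type and less RNA per cell cannot be told apart.

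**Figure D1:**
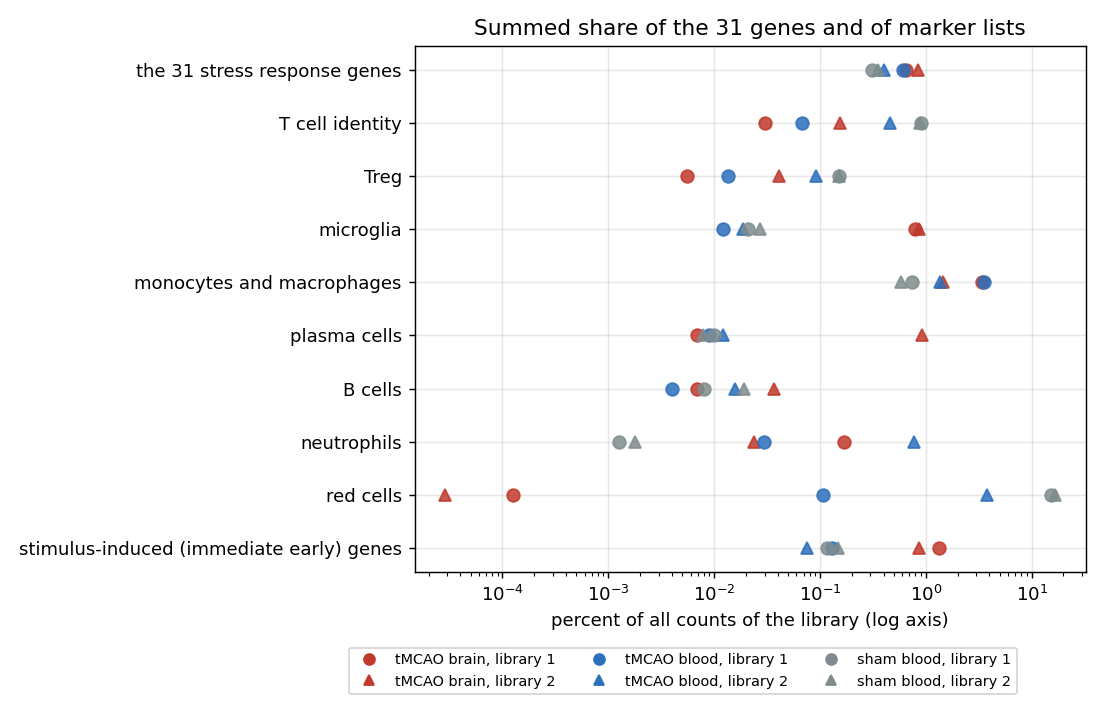
Summed share of all counts (percent, log axis) for the 31 stress response genes and for 9 marker lists, with 1 point per library, coloured by group and shaped by library number. The 31 genes ran from 0.312% in sham blood library 1 to 0.854% in brain library 2, while the T cell identity genes were lowest in library 1 of brain and of tMCAO blood.

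Over all 31 genes, brain libraries stood highest and, as a share of raw counts, sham blood libraries lowest. The summed share of the 31 genes was 0.646% and 0.854% of counts in brain, 0.611% and 0.407% for tMCAO blood, and 0.312% and 0.356% for sham blood. As shares of raw counts the 3 groups thus did not overlap. Red cell genes took 15.3% and 16.7% of those counts in sham blood and 3.82% in tMCAO blood library 2. Summed as CPM, the 31 genes in tMCAO blood library 2 lay below sham blood library 2, so the blood groups overlapped. A brain library held the highest level for 24 of the 31 genes and tMCAO blood library 1 for the other 7, and neither sham blood library nor tMCAO blood library 2 held any. The lowest level lay in a sham blood library for 17 genes and in tMCAO blood library 2 for 11. The 2 tMCAO blood libraries were far apart: library 1 exceeded library 2 in 27 of 31 genes, with a median ratio of 1.63. Brain library 2 exceeded library 1 in 19 genes with a median ratio of 1.04, from 0.236 for Ddit3 to 12.8 for Derl3. These counts of highest and lowest libraries and these ratios were not made for all genes. They thus do not show a trait particular to the 31.

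**Figure D2:**
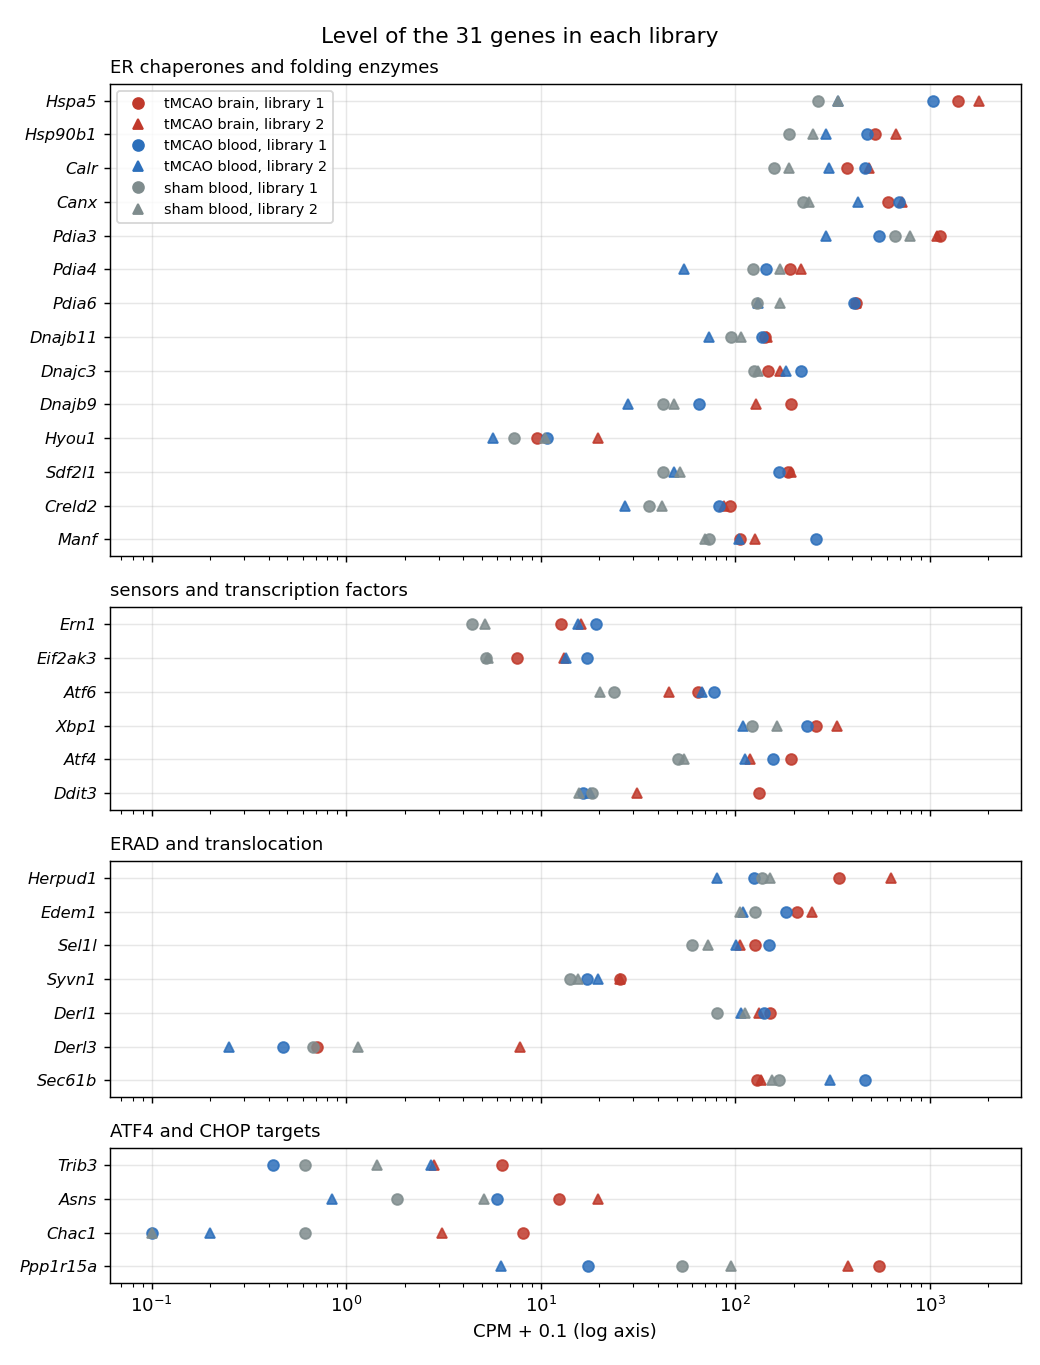
Level of each of the 31 genes in each of the 6 libraries, as CPM + 0.1 on a log axis, in 4 panels by role. Brain points lie to the right of sham blood points for 28 genes, and the 2 tMCAO blood points are often far apart, as for Hspa5 (1036 and 338 CPM).

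Against sham blood, 6 of the 31 genes were higher in brain (edgeR's quasi-likelihood test, Benjamini-Hochberg adjusted p under 0.05 over all genes tested) and 0 were lower. Across all genes 8.01% were called higher and 2.62% lower in that comparison. The 6, or 19.4% of the 31, were Ppp1r15a, Herpud1, Ern1, Atf4, Canx and Atf6. The median log2 change of the 31 genes was 1.32, against 0.09 for all genes tested, and 28 of 31 had both brain libraries above both sham blood libraries, as did 34.9% of all genes. Sec61b alone had both below, as did 29.7% of all genes. At an unadjusted p under 0.05 there were 18 of 31 higher and 0 lower, beside 3275 and 1759 of all 16657 genes. Against tMCAO blood, 2 genes were higher in brain, Ppp1r15a and Herpud1, and 0 were lower. Of all genes 3.53% were called higher and 1.37% lower there. In that comparison 7 of the 31 were higher and 1 lower at an unadjusted p under 0.05, beside 2792 and 1879 of all 16657 genes. The median log2 change was 0.64 for the 31 genes and 0.06 for all genes, and both brain libraries were above both tMCAO blood libraries for 19 genes (31.4% of all genes) and below them for 4 (25.9%). In tMCAO blood against sham blood, Ern1 and Atf6 were higher and Ppp1r15a was lower. There 4.33% of all genes were called higher and 3.15% lower, so 3 of 31 genes is near the background. The median was 0.49 for the 31 genes and 0.11 for all genes, and 12 genes were higher without overlap (33.6% of all genes) and 4 lower (30.4%). The 3 comparisons share libraries in pairs, so they are not independent of each other.

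These 11 calls rest on few libraries and lie near the threshold. With DESeq2's size factors in edgeR 4 of them missed it (adjusted p 0.0503 for Herpud1, 0.0508 for Ern1 and 0.0511 for Canx in brain against sham blood, and 0.0506 for Ppp1r15a in tMCAO blood against sham blood). Without sham blood library 1 or library 2, 0 of the 31 genes passed in any comparison, and 0 genes of the whole table passed in either comparison with sham blood (edgeR; 2490 to 3160 genes had an unadjusted p under 0.05). Without tMCAO blood library 1, 0 genes of the whole table passed in tMCAO blood against sham blood (3843 at an unadjusted p under 0.05). Without library 1 of brain and of tMCAO blood, the libraries with Foxp3 under 1 CPM, the 11 changes kept their direction. In brain against sham blood the log2 changes of the called genes then ran from 1.03 (Atf6) to 2.32 (Ppp1r15a). That fit has 1 residual degree of freedom, taken from the sham blood pair. This pair differed least, with a chi-square per degree of freedom of 18.7, against 139 in brain and 153 for tMCAO blood. The fit thus cannot decide whether the calls hold, and its calls are not counted here. Brain library 2, which stays in it, held 0.859% of its counts in microglia markers and 0.928% in plasma cell markers.

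**Figure D3:**
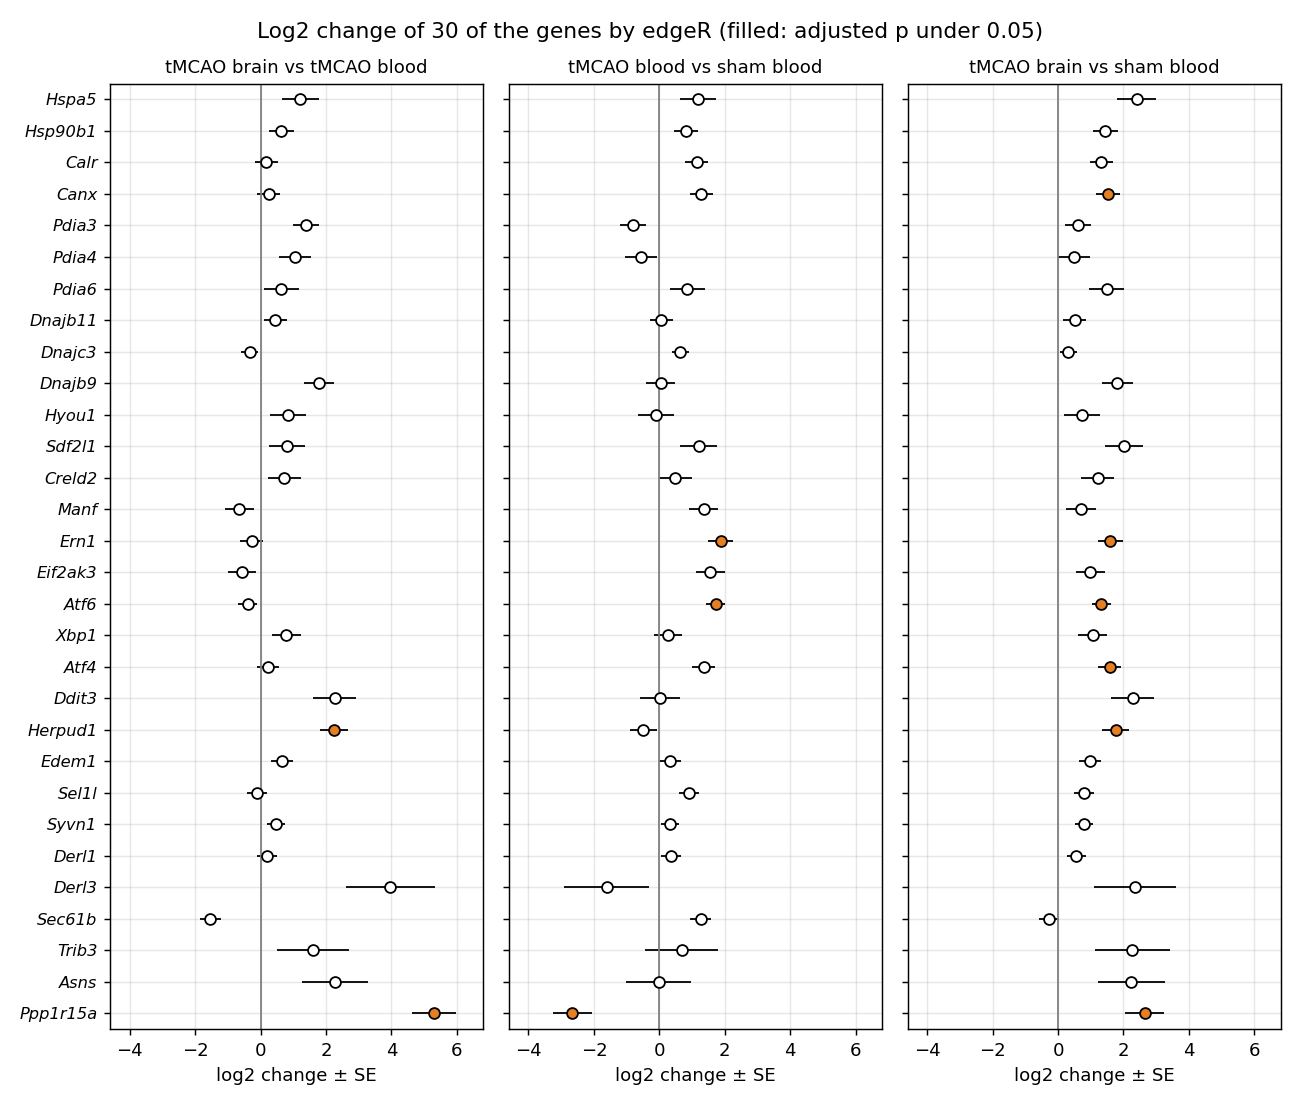
Log2 change ± SE of 30 of the 31 genes in each comparison (edgeR), with filled points where the adjusted p was under 0.05; Chac1, with counts of 0 to 2 in tMCAO blood, is left out. In brain against sham blood 6 points are filled and all 6 lie above 0, while in tMCAO blood against sham blood Ppp1r15a lies below 0 at -2.66.

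Ern1 and Atf6, 2 of the 3 ER sensors, were higher than in sham blood both in brain and in tMCAO blood. For all 3 sensors the log2 change of brain against tMCAO blood was negative and did not pass. Ern1 (chr11:106394650-106487852, - strand), which encodes IRE1, was at 12.6 and 16.1 CPM in brain, 19.1 and 15.5 CPM for tMCAO blood, and 4.36 and 5.07 CPM for sham blood. All 4 tMCAO libraries lay above both sham libraries, while brain and tMCAO blood overlapped. Ern1 was 3.67-fold higher in tMCAO blood than in sham blood (log2 change 1.87 ± 0.37 SE, adjusted p = 0.0418) and 3.04-fold higher in brain than in sham blood (1.60 ± 0.37, adjusted p = 0.046). Brain and tMCAO blood differed by -0.27 ± 0.36 (adjusted p = 0.652). The second of these calls was lost when any single library was left out (adjusted p 0.0545 to 0.303), and the first without brain library 1 (0.0508), without tMCAO blood library 1 or 2 (0.132 and 0.0558) and without either sham library.

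Atf6 (chr1:170704674-170867771, - strand) was at 64.1 and 45.8 CPM in brain, 77.6 and 67.3 CPM for tMCAO blood, and 23.9 and 19.98 CPM for sham blood. The 3 groups did not overlap, with tMCAO blood the highest. It was 3.30-fold higher in tMCAO blood than in sham blood (log2 change 1.72 ± 0.29, adjusted p = 0.035) and 2.5-fold higher in brain than in sham blood (1.32 ± 0.29, adjusted p = 0.0389). Brain lay below tMCAO blood by a log2 change of -0.40 ± 0.28, which did not pass (adjusted p = 0.389). Leaving out brain library 1 or 2 ended the brain call (adjusted p = 0.142 and 0.0507), and leaving out tMCAO blood library 1 ended the blood call (0.107).

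Eif2ak3, which encodes PERK, was at 7.44 and 13.1 CPM in brain, 17.2 and 13.4 CPM for tMCAO blood, and 5.13 and 5.28 CPM for sham blood. It kept the order of Ern1 and Atf6, but no comparison passed. The log2 change was 1.55 ± 0.44 in tMCAO blood against sham blood (adjusted p = 0.0804), 0.98 ± 0.44 in brain against sham blood (adjusted p = 0.193), and -0.57 ± 0.43 in brain against tMCAO blood (adjusted p = 0.424).

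The transcription factors below the sensors did not share 1 pattern. Atf4 (chr15:80255184-80257541, + strand), the central factor of the integrated stress response, was at 194 and 120 CPM in brain, 156 and 112 CPM for tMCAO blood, and 50.9 and 54.2 CPM for sham blood. Again all 4 tMCAO libraries lay above both sham libraries. Atf4 was 2.99-fold higher in brain than in sham blood (log2 change 1.58 ± 0.34, adjusted p = 0.0397), a call lost without brain library 1 (adjusted p = 0.13). The change in tMCAO blood against sham blood was 1.35 ± 0.34 (adjusted p = 0.063), and that in brain against tMCAO blood 0.22 ± 0.34 (adjusted p = 0.694).

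Xbp1, the substrate of IRE1, was at 261 and 333 CPM in brain, 235 and 109 CPM for tMCAO blood, and 122 and 165 CPM for sham blood. Brain was highest, and the tMCAO blood libraries lay on either side of sham blood. No comparison of Xbp1 passed: the log2 change was 1.05 ± 0.43 in brain against sham blood (adjusted p = 0.163), 0.79 ± 0.43 in brain against tMCAO blood (adjusted p = 0.281) and 0.26 ± 0.43 in tMCAO blood against sham blood (adjusted p = 0.712). These counts do not separate spliced from unspliced Xbp1.

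Ddit3 (chr10:127290774-127296288, + strand), which encodes CHOP, was high in 1 library. Its level was 133 CPM in brain library 1 and 31.3 CPM in brain library 2, and from 15.6 to 18.2 CPM in the 4 blood libraries. Both brain libraries lay above all blood libraries, but the pair differed more than 4-fold. The log2 change was 2.26 ± 0.65 against tMCAO blood (adjusted p = 0.0884) and 2.28 ± 0.65 against sham blood (adjusted p = 0.073). Without brain library 2 these were 2.96 and 2.97 and passed (adjusted p = 0.0362 and 0.0183), and without library 1 of brain and of tMCAO blood they were 0.74 and 0.86 and did not. Between tMCAO blood and sham blood the log2 change was 0.02 ± 0.62 (adjusted p = 0.994). Ddit3 shares its position with Mars1, at 40.6 and 53.2 CPM in brain, and no source used here gives the strand setting of the counting.

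**Figure D4:**
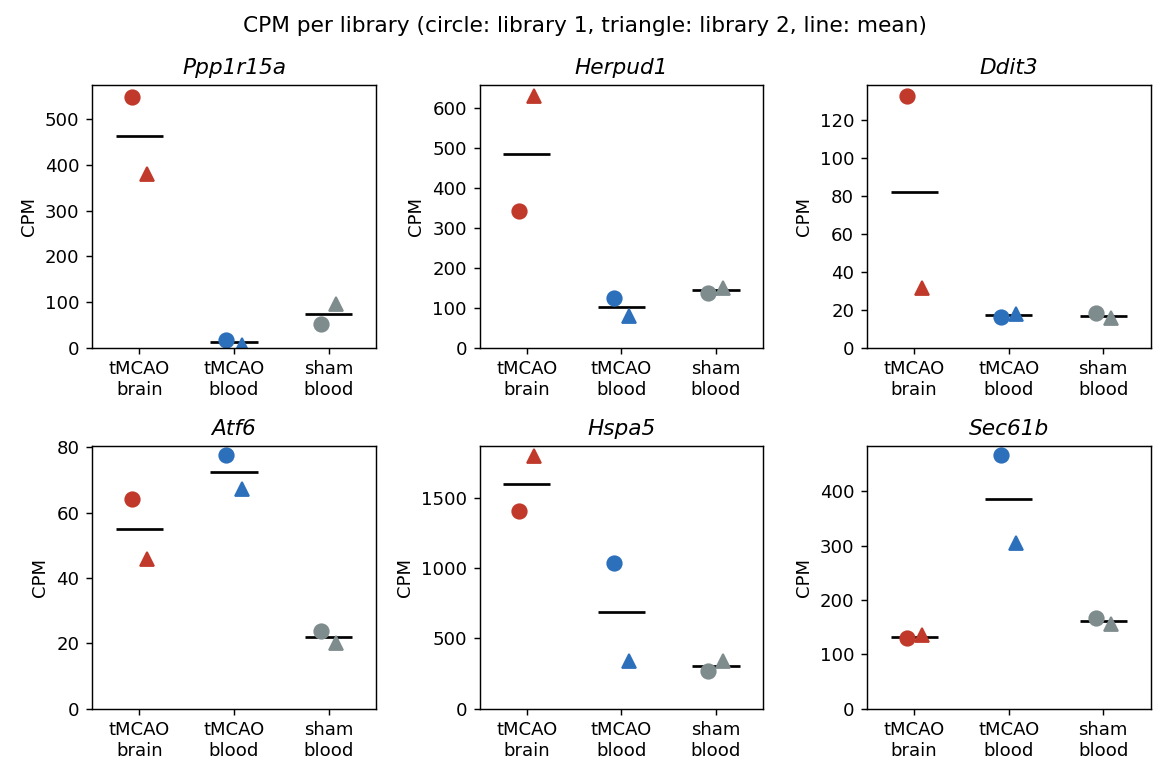
CPM of Ppp1r15a, Herpud1, Ddit3, Atf6, Hspa5 and Sec61b in each library (circle library 1, triangle library 2, line the mean of the 2), each axis from 0. Ppp1r15a and Herpud1 are highest in both brain libraries, Ddit3 is at 133 CPM in brain library 1 alone, Atf6 and Sec61b are highest in tMCAO blood, and Hspa5 is at 1036 and 338 CPM for tMCAO blood.

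Among the 14 chaperones and folding enzymes, all 14 had a positive log2 change in brain against sham blood, and 13 had both brain libraries above both sham libraries, but only Canx passed the test. Of all genes 34.9% had both brain libraries above and 8.01% were called higher, so the 7.14% called here is near the background. In brain against tMCAO blood, and in tMCAO blood against sham blood, 0 of 14 passed. There 3.53% and 4.33% of all genes were called higher. At an unadjusted p under 0.05, 2 and 4 of the 14 were higher, beside 2792 and 2740 of all 16657 genes. The median log2 change was 1.27 in brain against sham blood, 0.68 in brain against tMCAO blood and 0.72 in tMCAO blood against sham blood. Canx (chr11:50293961-50325673, - strand), the membrane-bound lectin chaperone calnexin, was at 611 and 724 CPM in brain, 699 and 429 CPM for tMCAO blood, and 222 and 240 CPM for sham blood. It was 2.88-fold higher in brain than in sham blood (log2 change 1.53 ± 0.36, adjusted p = 0.0473), lost without brain library 1 or 2 (adjusted p = 0.098 and 0.117). Its soluble counterpart calreticulin (Calr) had the same order, with 378 and 490 CPM in brain, 465 and 304 CPM for tMCAO blood, and 159 and 188 CPM for sham blood. Calr did not pass (log2 change 1.32 ± 0.35 in brain against sham blood, adjusted p = 0.0616).

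Hspa5 (chr2:34771970-34777547, + strand), which encodes BiP and is the usual reference gene of ER stress, was at 1404 and 1795 CPM in brain, 1036 and 338 CPM for tMCAO blood, and 267 and 339 CPM for sham blood. Brain did not overlap either blood group, and tMCAO blood library 2 was level with sham blood library 2. The log2 change in brain against sham blood was 2.40 ± 0.58, a 5.27-fold difference that missed the threshold (adjusted p = 0.052). It was 1.22 ± 0.56 in brain against tMCAO blood (adjusted p = 0.217) and 1.18 ± 0.56 in tMCAO blood against sham blood (adjusted p = 0.216). Sdf2l1, which works with the BiP cochaperone Dnajb11, had the same shape: 186 and 194 CPM in brain, 168 and 48.5 CPM for tMCAO blood, and 42.4 and 51.9 CPM for sham blood. Its log2 change in brain against sham blood was 2.01 ± 0.57 (adjusted p = 0.0734). Of 6608 tested genes whose mean reached 20 CPM, those most like Hspa5 over the 6 libraries were Slc2a1, Fem1c and Sdf2l1, with Pearson's r of log2(CPM + 1) of 0.996, 0.994 and 0.988. With 6 libraries in 3 groups this is a description only, and the libraries also share the differences in markers and depth given above.

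Hsp90b1 (GRP94), the ER member of the HSP90 family, was at 525 and 671 CPM in brain, 476 and 293 CPM for tMCAO blood, and 189 and 250.8 CPM for sham blood, with a log2 change in brain against sham blood of 1.44 ± 0.38 (adjusted p = 0.0601). Dnajb9, a BiP cochaperone, stood apart in brain at 193 and 127 CPM, against 65.3 and 28.2 CPM for tMCAO blood and 42.4 and 48.6 CPM for sham blood. Its log2 change was 1.78 ± 0.46 against tMCAO blood (adjusted p = 0.0743) and 1.82 ± 0.46 against sham blood (adjusted p = 0.0567). Both tMCAO blood libraries lay on either side of the sham blood pair for Dnajb9.

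The disulphide isomerases differed among themselves. Pdia3 (ERp57), which works with calnexin and calreticulin on glycoproteins, was at 1125 and 1091 CPM in brain, 549 and 292 CPM for tMCAO blood, and 665 and 795 CPM for sham blood. Here tMCAO blood was the lowest group. The log2 change in brain against tMCAO blood was 1.40 ± 0.40 (adjusted p = 0.0893). Pdia6 was at 420 and 418 CPM in brain and 410 CPM in tMCAO blood library 1, against 131 CPM in library 2 and 129 and 170 CPM for sham blood. Pdia4 was at 192 and 219 CPM in brain, 145 and 54.7 CPM for tMCAO blood, and 123 and 171 CPM for sham blood.

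The remaining chaperone genes showed smaller or mixed differences. Manf, a secreted protein of the ER lumen, was highest in tMCAO blood library 1, at 260 CPM, with 105 CPM in library 2, 106 and 127 CPM in brain, and 73.4 and 69.6 CPM for sham blood. Dnajc3, a BiP cochaperone that also restrains PERK, had its highest levels in tMCAO blood (217 and 182 CPM), above brain (148 and 171 CPM) and sham blood (125 and 131 CPM), and did not pass. Creld2 was at 93.8 and 87.1 CPM in brain, 82.1 and 27.1 CPM for tMCAO blood, and 35.9 and 41.9 CPM for sham blood. Dnajb11, another BiP cochaperone, was at 142 and 147 CPM in brain and from 73.5 to 137 CPM in blood. Hyou1, the nucleotide exchange factor of BiP, was the least abundant of the 14, from 5.58 CPM in tMCAO blood library 2 to 19.5 CPM in brain library 2.

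The 11 genes with an ERSE or ERSE-II match and the 16 with a promoter window but neither motif did not separate clearly. In brain against sham blood the median log2 change was 1.44 for the first set and 1.59 for the second, and 2 and 3 genes were called higher. In brain against tMCAO blood the medians were 0.63 and 0.93, with 1 gene called in each set. In tMCAO blood against sham blood they were 0.64 and 0.29, with 0 of 11 genes called, and of the 16 others 1 called higher and 1 lower.

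Herpud1 was the only call among the 7 ERAD and translocation genes, higher in brain than in either blood group. Its product anchors the membrane complex that passes misfolded protein out of the ER for degradation. Herpud1 (chr8:94386438-94395377, + strand) was at 342 and 631 CPM in brain, 125 and 80.2 CPM for tMCAO blood, and 137 and 151 CPM for sham blood. Brain lay above all blood libraries, and tMCAO blood lay below sham blood. It was 4.74-fold higher in brain than in tMCAO blood (log2 change 2.25 ± 0.42, adjusted p = 0.0417) and 3.38-fold higher than in sham blood (1.76 ± 0.41, adjusted p = 0.048). The difference between tMCAO and sham blood was -0.49 ± 0.40 (adjusted p = 0.45). The first call was lost in a fit of only the 2 groups (adjusted p = 0.108), without brain library 2 (1.74, adjusted p = 0.101) and without either tMCAO blood library (0.0788 and 0.122). The second was lost without brain library 2 (adjusted p = 0.125). That library, the higher of the brain pair for Herpud1, also held 0.928% of its counts in 10 plasma cell markers, against 0.00689% in brain library 1, and the part of plasma cell RNA in the Herpud1 level was not tested. The 120 bases before its start, with the ERSE-II match in capitals, are shown because this was the only ERSE-II gene that passed (chr8:94386309-94386428, + strand, RefSeq, GRCm38.p6):
Herpud1 upstream: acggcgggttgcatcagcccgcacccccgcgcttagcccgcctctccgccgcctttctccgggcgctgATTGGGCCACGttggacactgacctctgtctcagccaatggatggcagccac

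The other genes of ERAD did not pass in any comparison. Edem1, a lectin that extracts misfolded glycoproteins, was at 207 and 247 CPM in brain, 182 and 109 CPM for tMCAO blood, and 127 and 106 CPM for sham blood. The membrane ligase of ERAD is Syvn1 (HRD1), at 25.3 and 25.6 CPM in brain, 17.3 and 19.7 CPM for tMCAO blood, and 14.0 and 15.5 CPM for sham blood. Its adaptor Sel1l was at 126 and 106 CPM in brain, 150 and 101 CPM for tMCAO blood, and 59.9 and 72.8 CPM for sham blood. Derl1, a channel component, overlapped between brain (151 and 132 CPM) and tMCAO blood (141 and 107 CPM).

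Derl3, which is known from secretory cells, was detected at low level in 5 libraries and at a higher level in 1. It had 190 counts (7.76 CPM) in brain library 2, 10 counts (0.605 CPM) in brain library 1, 7 and 3 counts in tMCAO blood, and 9 and 15 counts in sham blood. The log2 change in brain against tMCAO blood was 3.97 ± 1.36 (adjusted p = 0.124). The 10 plasma cell markers took 0.928% of counts in that same brain library and 0.00689% to 0.0122% in the other 5. Igha was at 6262 CPM there and at 0 in the other 5 libraries, and the part of plasma cell RNA in the Derl3 value was not tested.

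Sec61b was the only one of the 31 genes with a negative log2 change in brain against sham blood (-0.28, adjusted p = 0.594, so not past the threshold), and had the most negative of 7 negative log2 changes in brain against tMCAO blood. It encodes the beta subunit of the SEC61 channel, through which new proteins enter the ER, and was at 130 and 135 CPM in brain, 467 and 306 CPM for tMCAO blood, and 168 and 155 CPM for sham blood. Brain was the lowest group and tMCAO blood the highest, with no overlap. The log2 change was -1.54 ± 0.32 in brain against tMCAO blood (2.91-fold lower, adjusted p = 0.0503) and 1.26 ± 0.31 in tMCAO blood against sham blood (adjusted p = 0.0609). The first passed under DESeq2 (adjusted p = 2.48e-04), limma-voom (0.0304), no filter on low counts (0.00362) and a stricter filter (0.0339). It did not pass in edgeR with DESeq2's size factors, with only the 2 groups compared or with a replicate block.

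Ppp1r15a had the largest called change of the 31 genes, and it was the only one called in all 3 comparisons. Ppp1r15a (chr7:45522916-45526268, - strand) was at 548 and 380 CPM in brain, 17.3 and 6.13 CPM for tMCAO blood, and 53.3 and 95.2 CPM for sham blood. Brain was highest and tMCAO blood lowest, and the 3 groups did not overlap. It was 39.6-fold higher in brain than in tMCAO blood (log2 change 5.31 ± 0.67, adjusted p = 0.0222) and 6.25-fold higher than in sham blood (2.64 ± 0.59, adjusted p = 0.0417). In tMCAO blood it was 6.33-fold lower than in sham blood (-2.66 ± 0.59, adjusted p = 0.0499), so this gene moved opposite to Ern1 and Atf6 in that comparison. The first call was lost in a fit of only the 2 groups (adjusted p = 0.0625). Its log2 change was 6.24 without tMCAO blood library 1 (adjusted p = 0.0399) and 4.73 without library 2 (adjusted p = 0.0533). The second was lost without brain library 1 or 2 (adjusted p = 0.112 and 0.0614). The third was lost on leaving out each of the 6 libraries in turn, with -3.60 and -2.10 without tMCAO blood library 1 and 2. The overlapping gene Tulp2 was at 0.548 to 2.54 CPM.

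Ppp1r15a is also known as a gene induced quickly by many stimuli, and the 14 immediate early genes, which cells transcribe within minutes of a stimulus or of handling, took 1.34% and 0.870% of counts in brain, 0.129% and 0.0747% for tMCAO blood, and 0.116% and 0.149% for sham blood. Of these 14, 10 were called higher in brain than in tMCAO blood and 14 higher in brain than in sham blood (edgeR). Of all genes 3.53% and 8.01% were called higher there. Between tMCAO blood and sham blood 0 of the 14 were called in either direction. At an unadjusted p under 0.05, 4 were higher and 3 lower in that comparison, beside 2740 and 2198 of all 16657 genes. The part of such induction, and of the microglia share, in the Ppp1r15a level was not tested. A cAMP response element (TGACGTCA, searched on both strands), which CREB and ATF family factors bind, was found in the Ppp1r15a window alone among the 27, and in 1.79% of all windows. It is shown in capitals in the 60 bases before the start (chr7:45526269-45526328, - strand, RefSeq, GRCm38.p6):
Ppp1r15a upstream: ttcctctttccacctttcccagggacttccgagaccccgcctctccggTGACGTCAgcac

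The other 3 genes downstream of ATF4 were scarce and highest in brain, and 0 of them passed. Chac1, which degrades glutathione, had 133 and 74 counts in brain, 0 and 2 for tMCAO blood, and 8 and 0 for sham blood. The ratio of brain to tMCAO blood was 97.5, with an exact 95% interval of 26.7 to 811 that covers counting error only (edgeR adjusted p = 0.0798). Asns, asparagine synthetase, was at 12.3 and 19.5 CPM in brain, 5.87 and 0.747 CPM for tMCAO blood, and 1.73 and 5.0 CPM for sham blood. Trib3, a pseudokinase that feeds back on ATF4 and CHOP, was at 6.23 and 2.74 CPM in brain, 0.323 and 2.64 CPM for tMCAO blood, and 0.513 and 1.34 CPM for sham blood. For all 3 genes both brain libraries lay above all 4 blood libraries, though for Trib3 only by 2.74 against 2.64 CPM (67 and 53 counts). Of all genes 31.4% had both brain libraries above both tMCAO blood libraries, and 34.9% above both sham blood libraries. The share of all genes above all 4 was not counted.

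Per kilobase of exon, where levels can be compared between genes, the leading member changed with the group. In brain Hspa5 was highest, at 332 and 424 CPM per kb, then Pdia3 at 358 and 348, and these overlapped. In tMCAO blood Sec61b led at 367 and 240 CPM per kb, followed by Hspa5 at 245 and 80.0, with overlap. In sham blood Pdia3 led at 212 and 253 CPM per kb, above Sec61b at 132 and 122 without overlap. Ppp1r15a ranked 5 of 31 in brain, 23 for tMCAO blood and 15 for sham blood.

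A wider set of 110 genes of the same pathways gave 107 that passed the filter. In brain against sham blood 14 of the 107 were higher and 1 lower, in brain against tMCAO blood 4 and 2, and in tMCAO blood against sham blood 6 and 1. Called higher were thus 13.1%, 3.74% and 5.61% of the 107 genes, against 8.01%, 3.53% and 4.33% of all genes, so the counts in the latter pair of comparisons are near the background. The median log2 changes were 0.52, 0.23 and 0.30 in the same order. Among 39 genes of the integrated stress response, 8 were higher in brain than in sham blood. These included the transcription factor Atf3 (log2 change 8.72, adjusted p = 0.0107), which is also on the immediate early list, Nfe2l2 (2.72, adjusted p = 0.0179), the alanyl-tRNA synthetase Aars (1.68, adjusted p = 0.0198) and the amino acid transporter chain Slc3a2 (2.34, adjusted p = 0.0238). Atf3, Nfe2l2 and Slc3a2 were also higher in brain than in tMCAO blood (6.50, 2.38 and 2.13, adjusted p = 0.0248, 0.0362 and 0.0422). Cebpb, a partner of CHOP, was at 19.5 and 22.2 CPM in brain, 168 and 79.9 CPM for tMCAO blood, and 7.25 and 4.64 CPM for sham blood. It was higher in tMCAO blood than in sham blood (log2 change 4.38, adjusted p = 0.0313) and lower in brain than in tMCAO blood (-2.57, adjusted p = 0.035). Cebpg was higher in tMCAO blood than in sham blood (log2 change 1.45, adjusted p = 0.0495), and Gadd45a was lower (-2.51, adjusted p = 0.0439).

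Ppp1r15b, the constitutive counterpart of Ppp1r15a on the same phosphatase, had another order of groups. It was at 36.9 and 34.4 CPM in brain, 110 and 68.1 CPM for tMCAO blood, and 29.5 and 19.4 CPM for sham blood, and was higher in tMCAO blood than in sham blood (log2 change 1.86, adjusted p = 0.0392). Thus in that comparison Ppp1r15b was higher and Ppp1r15a lower.

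In the folding, ERAD and regulator lists 2 of 17, 2 of 15 and 2 of 15 genes were higher in brain than in sham blood, and 1 in each list in tMCAO blood than in sham blood, beside 8.01% and 4.33% of all genes. Of 17 folding and redox genes, Ero1b, an oxidase that recharges the disulphide isomerases, and Fkbp2, a prolyl isomerase, were higher in brain than in sham blood (log2 change 1.66 and 1.59, adjusted p = 0.0223 and 0.0273). Fkbp2 was also higher in tMCAO blood than in sham blood (log2 change 2.26, adjusted p = 0.0313). Of 15 ERAD genes, Os9, a lectin, and Nploc4, a cofactor of the VCP extraction motor, were higher in brain than in sham blood (1.57 and 1.20, adjusted p = 0.0199 and 0.0395), and Nploc4 also in tMCAO blood (1.56, adjusted p = 0.035). Edem2 was higher in brain than in tMCAO blood (2.39, adjusted p = 0.027), at 212 and 183 CPM against 46.9 and 28.3 CPM. Of 15 regulators, Creb3l2 and the proapoptotic Bcl2l11 were higher in brain than in sham blood (2.79 and 1.19, adjusted p = 0.0161 and 0.0496), and Creb3l2 was higher in tMCAO blood than in sham blood (log2 change 1.80, adjusted p = 0.0496).

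Of 21 genes for translocation, signal peptide cleavage and glycosylation, Sec61g was the only call. The gamma subunit of the channel to which Sec61b belongs was at 78.3 and 76.8 CPM in brain, 350 and 237 CPM for tMCAO blood, and 308 and 319 CPM for sham blood. It was lower in brain than in tMCAO blood (log2 change -1.92, adjusted p = 0.0333) and than in sham blood (-2.01, adjusted p = 0.0181). Both small subunits of the channel were thus lowest in brain, while Sec61a1, the pore subunit, chosen for comparison after its values were seen, was at 62.1 and 131 CPM in brain, 39.3 and 25.3 CPM for tMCAO blood, and 66.2 and 74.0 CPM for sham blood and did not pass (adjusted p = 0.081 against tMCAO blood).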

How the data were processed

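Between 500 and 1000 cells went into each library, per the labels' protocols, and were amplified with a SMART-Seq ultralow input kit and sequenced as Nextera XT libraries (paired-end, 75 bp). The authors deposited raw gene counts, made with STAR and HTSeq 0.11.2 on GRCm38, per the submitters' processing notes. The annotation and strand setting are not given in the sources used here. Reads carry no molecular identifiers, so intervals cover counting error only. Whether libraries came from separate animals is not stated, and p-values then cover only the spread of these libraries, possibly technical. Within groups, a chi-square test gave 18.7 to 153 per degree of freedom, so no library repeats another.

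Counts of all 6 libraries were fitted together with edgeR 4.0.16 in R 4.3.3: filterByExpr (minimum count 10), TMM scaling, quasi-likelihood test, 3 residual degrees of freedom, Benjamini-Hochberg adjustment over 16657 genes, threshold 0.05. SE is the log2 change over the square root of F. CPM use TMM-adjusted library sizes. Alternatives were DESeq2's size factors, no or a stricter filter (5 CPM in 2 libraries), DESeq2 1.42.0, limma-voom (limma 3.58.1), only the 2 groups compared, a replicate block and left-out libraries. Coordinates are GENCODE M21 (GRCm38). Of the 110 further genes, 7 were matched by synonym.

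The members and lists were chosen with earlier results of these data known. Called members, the 6 sensors and factors, Hspa5, and up to 4 called genes of each further list, by smallest adjusted p, are named.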

Additional observations from a re-analysis of the deposited data

How the results depend on the processing

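For 47 comparisons of single genes, 646 of 654 alternative values kept their direction, and 59 lost and 95 gained a call. Genes called higher in brain against tMCAO blood numbered 2 in the reported fit, 9 with no filter on low counts, 7 with DESeq2, 0 with only the 2 groups, 16 without library 1 of brain and of tMCAO blood, and 0 to 2 with a library left out. With no filter, the stricter filter, DESeq2, limma-voom or without both of those libraries 1 gene, Sec61b, was called lower. In tMCAO blood against sham blood 7 were higher with no filter, 4 with the stricter filter, 8 with DESeq2, 7 without both libraries and 0 to 6 with a library left out. There 0 were lower with DESeq2's size factors or with a library left out, and 4 without both libraries. In brain against sham blood 3 were higher with DESeq2's size factors, 16 with no filter, 10 with the stricter filter, 13 with DESeq2, 12 with only the 2 groups, 19 without both libraries and 0 to 12 with a library left out. Directions turned for 3 genes without a call: Atf4 in brain against tMCAO blood (-0.17 without brain library 1, -0.0051 without tMCAO blood library 2, range to 0.54 with a library left out), Xbp1 in tMCAO blood against sham blood (-0.39 without tMCAO blood library 1, -0.35 without both libraries, range to 0.71), and Ddit3 in the latter (-0.019 with DESeq2's size factors, -0.021 with DESeq2, -0.042 without tMCAO blood library 2, -0.091 without sham blood library 2, range to 0.12). The cause was not tested.

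The titles share replicate numbers, and no label says what a number marks. Deviations of same-numbered samples correlated at 0.304 between brain and tMCAO blood, -0.0702 between tMCAO blood and sham blood, and -0.0285 between brain and sham blood. Whether brain and blood of 1 number came from the same mice is not stated, and 2 pairs cannot settle it, so the block was not used in the reported fit. With the replicate number as a block, 1 gene was higher in brain against tMCAO blood (Herpud1 was lost, adjusted p = 0.0529), 1 higher and 1 lower in tMCAO blood against sham blood, and 4 higher in brain against sham blood. The block kept 6 of the 11 calls, DESeq2 and both filters 11 each. With 2 libraries a group, a left-out library leaves an arm of 1, which is assumed to vary like the other groups. Genes under about 1 CPM, such as Chac1 and Derl3 in blood, are limited by depth.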

Other observations

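The kinases that phosphorylate eIF2 beside PERK, which fall outside the rule for named genes, did not share one order of groups, and none passed in any comparison (edgeR). Eif2ak4 (GCN2, the sensor of amino acid shortage) was at 13.2 and 9.31 CPM in brain, 17.2 and 16.8 CPM for tMCAO blood, and 7.06 and 6.33 CPM for sham blood, the order also seen for Eif2ak3, with a log2 change of 1.35 ± 0.37 between tMCAO blood and sham blood (adjusted p = 0.0755). Eif2ak2 (PKR, the sensor of viral double-stranded RNA) was highest in brain, at 91.2 and 49.3 CPM against 39.4 and 37.8 CPM for tMCAO blood and 31.6 and 18.0 CPM for sham blood (log2 change 1.5 ± 0.42 between brain and sham blood, adjusted p = 0.0694). Eif2ak1 (HRI, the haem-regulated kinase) was at 41.3 and 35.4 CPM for tMCAO blood, below sham blood at 48.8 and 68.1 CPM, and brain (50.6 and 39.5 CPM) overlapped both.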
